A study of Mus musculus with 16 samples.

Results

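Sprouty, Spred and dual-specificity phosphatase (Dusp) genes that act as feedback brakes on mitogen-activated protein (MAP) kinase signalling were followed in early thymocytes of BDC2.5 T cell receptor transgenic mice. The 9 genes were Spry1, Spry2, Spred1, Spred2, Dusp2, Dusp4, Dusp5, Dusp6 and Dusp10, chosen by symbol from the 19531 genes with a named probe set. All 9 were measured and all 9 were among the 10689 genes tested. BDC mice carry the rearranged receptor genes of the BDC2.5 clone, a CD4 T cell line able to transfer diabetes, while mice without the transgene (non-Tg) make a polyclonal repertoire. The transgene's promoter and the number of mice behind each array are not given in the sources used here. Both genotypes were on NOD, the strain that develops autoimmune diabetes, and on B6g7, a C57BL/6 background with the NOD MHC haplotype. All mice were 4 weeks old. CD4 and CD8 cells were depleted with complement, and CD4- CD8- lineage-negative cells were then sorted as CD44- CD25- cells (DN4) or as CD25+ cells (DN2-3), the stage before it. The 8 groups were BDC/NOD, BDC/B6g7, NOD and B6g7 at the DN4 stage and the same 4 at the DN2-3 stage, with 2 arrays each and 16 arrays in all. Every non-Tg array was from females, and in every BDC group replicate 1 was male and replicate 2 female.

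Signals of the pre-T cell receptor and the mature receptor pass through the adaptor LAT and RAS guanine nucleotide exchange factors to RAS, RAF, MEK and ERK. Sprouty and Spred proteins act on the early steps, at RAS and RAF, and Spred proteins do so together with the RAS-inactivating protein neurofibromin. Dusp proteins remove phosphate from the activated MAP kinases themselves: Dusp2, Dusp4 and Dusp5 are nuclear and inducible, Dusp6 is cytoplasmic and prefers ERK, and Dusp10 prefers the p38 and JNK kinases. Many of these genes are transcribed in response to ERK activity, so that their products close a negative feedback loop.

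RefSeq promoter sequences (GRCm38.p6, the C57BL/6J reference; the 250 bases before the gene start) were matched for 8 of the 9 genes. Those of the genes that differed most between BDC and non-Tg DN4 cells (Dusp5, Dusp6, Dusp10), of Dusp2, which shared their difference at DN4, and of Spry1, which differed between strains, are printed with motif matches in capitals.
Dusp5, chr19:53528895-53529144, plus strand: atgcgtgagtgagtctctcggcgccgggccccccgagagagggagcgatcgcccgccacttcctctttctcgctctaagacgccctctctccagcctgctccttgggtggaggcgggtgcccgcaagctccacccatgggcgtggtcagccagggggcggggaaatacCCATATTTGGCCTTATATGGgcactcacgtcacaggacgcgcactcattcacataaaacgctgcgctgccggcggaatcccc
Dusp2, chr2:127335909-127336158, plus strand: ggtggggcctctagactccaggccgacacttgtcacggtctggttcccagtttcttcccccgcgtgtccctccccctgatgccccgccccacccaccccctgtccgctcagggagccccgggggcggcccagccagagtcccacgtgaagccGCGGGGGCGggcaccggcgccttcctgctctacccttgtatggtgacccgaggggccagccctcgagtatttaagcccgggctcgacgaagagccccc
Dusp6, chr10:99262981-99263230, plus strand: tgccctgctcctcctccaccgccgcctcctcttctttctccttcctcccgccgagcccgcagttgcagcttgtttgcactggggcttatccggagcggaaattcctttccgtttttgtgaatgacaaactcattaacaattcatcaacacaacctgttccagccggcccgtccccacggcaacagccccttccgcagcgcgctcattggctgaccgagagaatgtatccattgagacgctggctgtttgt
Dusp10, chr1:184034131-184034380, plus strand: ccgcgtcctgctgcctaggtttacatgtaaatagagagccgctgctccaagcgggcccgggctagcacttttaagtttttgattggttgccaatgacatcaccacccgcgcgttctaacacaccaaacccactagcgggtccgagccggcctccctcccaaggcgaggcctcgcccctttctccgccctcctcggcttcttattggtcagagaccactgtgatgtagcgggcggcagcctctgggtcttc
Spry1, chr3:37639697-37639946, plus strand: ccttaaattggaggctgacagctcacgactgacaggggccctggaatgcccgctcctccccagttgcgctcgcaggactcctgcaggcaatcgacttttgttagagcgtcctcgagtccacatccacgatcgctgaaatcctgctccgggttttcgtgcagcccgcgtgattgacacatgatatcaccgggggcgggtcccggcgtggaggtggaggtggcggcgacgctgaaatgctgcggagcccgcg
Matches were sought on both strands for 5 motifs: the ETS motif CCGGAAGT, the AP-1 motif TGANTCA, the CRE motif TGACGTCA, the EGR motif GCGNGGGCG and the CArG box. The Dusp5 sequence held 2 adjoining CArG boxes, which begin 82 and 72 bases before the start, and the Dusp2 sequence held 1 EGR match, 98 bases before the start. In the other 6 promoters none of the 5 motifs was matched in these 250 bases. Over all 32851 promoters of the table, a CArG box was found in 1.47%, the EGR motif in 4.7%, the ETS motif in 2.88%, AP-1 in 6.75% and CRE in 1.55%. A match is a description of letters, and binding was not measured.

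Median intensities of the arrays lay between 123.1 and 138.2, and the correlation of the 2 replicates across genes was 0.986 to 0.997. The 2 NOD DN2-3 arrays differed most: the median absolute log2 difference between them was 0.24, against 0.09 to 0.14 in the other groups. Of the 9 genes, 8 read lower in replicate 1, by up to 1.21 for Spry1, where 65.0% of all genes tested did. That difference does not tell which of the 2 arrays is the odd one. Replicate 1 had the highest median intensity of all arrays, 138.2. It also had the lowest ratio of upper to lower quartile, 6.82 against 9.32 in replicate 2. In NOD DN4 8 of the 9 genes also read lower in replicate 1, by up to 0.73, where 59.9% of all genes tested did. Called results that use NOD DN2-3 are given below with the value without its replicate 1 where that array moves them. Il2ra (CD25), on which the sort was based, was lower in DN4 than in DN2-3 cells, with log2 differences of -3.07 in BDC and -2.84 in non-Tg mice. The 13 genes listed as markers of double-negative stages were Il2ra, Cd44, Ptcra, Rag1, Rag2, Kit, Cd24a, Cd3e, Thy1, Cd28, Cd4, Cd8a and Cd8b1. The list thus mixes stage genes with coreceptor and general T cell genes, and its counts and sums do not measure stage alone. These genes also differed with the transgene, with 2 higher and 10 lower in BDC DN4 cells (median -0.66). In BDC DN2-3 cells 2 were higher and 7 lower (median -0.30), and Rag2 was at background in both BDC/B6g7 groups. Their summed intensity was 26761 to 26983 in BDC/NOD, 22796 to 23309 in BDC/B6g7, 27899 to 29556 in NOD and 29793 to 30103 in B6g7 DN4 arrays, and 28142 to 29019 in BDC/NOD, 26144 to 27607 in BDC/B6g7, 37112 to 38083 in NOD and 34042 to 34906 in B6g7 DN2-3 arrays. Markers of other T lineage cells differed with the transgene too: the summed intensity of 6 matched gamma-delta T cell markers of 9 listed (the others were not analysed here) was 9391 to 10417 in BDC/NOD, 14934 to 15844 in BDC/B6g7, 1886 to 2128 in NOD and 2469 to 2741 in B6g7 DN4 arrays. In DN2-3 arrays it was 5112 to 5425 in BDC/NOD, 6355 to 6516 in BDC/B6g7, 1627 to 1881 in NOD and 2014 to 2045 in B6g7. The sum of 7 matched mature T cell markers of 8 was 3749 to 3763 in BDC/NOD, 7857 to 8802 in BDC/B6g7, 2028 to 2144 in NOD and 2484 to 2669 in B6g7 DN4 arrays, and 3573 to 3645 in BDC/NOD, 4020 to 4178 in BDC/B6g7, 3153 to 3453 in NOD and 3168 to 3484 in B6g7 DN2-3 arrays. No marker of these 2 T cell lists was at background, a log2 intensity of 5.98. Of 6 NK cell markers, Ncr1, Klrb1c, Klrd1 and Klrk1 were at or below background in every group and Eomes in all but NOD DN2-3, while Nkg7, a cytotoxic granule gene, was not. Nkg7 was higher in BDC DN4 cells by 3.20 ± 0.09, was not called for the transgene in DN2-3 cells (-0.07 ± 0.09), and had a stage difference of -3.32 ± 0.09 in non-Tg and -0.05 ± 0.09 in BDC mice. The summed NK marker intensity was 1299 to 1335 in BDC/NOD, 3480 to 3661 in BDC/B6g7, 307 to 315 in NOD and 434 to 464 in B6g7 DN4 arrays, and 1448 to 1796 in BDC/NOD, 2793 to 3378 in BDC/B6g7, 2042 to 2106 in NOD and 2427 to 2801 in B6g7 DN2-3 arrays. Among other lineages, the B cell genes Cd79a, Ms4a1 and Ebf1 (of 6 matched) and the myeloid genes Csf1r, Itgam and Cd14 (of 9 listed) were at or below background in every group. The 1 B cell gene tested was lower in BDC DN2-3 (-0.73), higher in BDC DN4 (0.20) and lower at DN4 in non-Tg mice (-0.85). Of 2 myeloid genes tested, 1 was lower in BDC DN2-3 (median -0.93) and neither was called in BDC DN4. Both were lower at DN4 in non-Tg mice (median -1.45). Of 7 thymic stroma markers, only Krt5 was at background in each group. The part of all these markers in the results below was not tested. In bulk samples such as these, fewer cells of a type and less RNA per cell cannot be told apart. The labels do not say whether the 2 arrays of a group came from separate animals, so each p-value reflects the spread of the samples at hand, which may be technical.

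BDC DN4 thymocytes carried more of nearly all these transcripts than non-Tg DN4 thymocytes. Averaged over strains, 8 of the 9 genes were higher and none lower at an adjusted p under 0.05, where 28.7% of all genes tested were higher and 30.8% lower. Spry2, among the 8, lay near the limit for testing and passed it partly through BDC/B6g7 DN4, a group on the higher side here. The median log2 difference of the 9 genes was 0.76, and that of all genes tested was -0.03. The differences were largest for the phosphatases Dusp5, Dusp10, Dusp6 and Dusp4, at 2.75-fold, 2.71-fold, 2.70-fold and 2.43-fold. In DN2-3 thymocytes 5 genes were higher in BDC and 1, Spry2, was lower, where 29.8% of genes tested were higher and 19.3% lower, and the median of the 9 genes was 0.41 against 0.05 for all genes. The 4 BDC DN4 arrays lay above the 4 non-Tg DN4 arrays for 6 of the 9 genes, where 21.1% of genes tested were separated in that direction. The 4 BDC DN2-3 arrays lay above the 4 non-Tg DN2-3 arrays for Spred1, Spred2 and Dusp10 (22.4% of genes tested) and below them for Spry2 (12.5%). All levels below are log2 intensities per array, replicate 1 first, and all errors on differences are standard errors of the limma model with 2 arrays per group.

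**Figure D1:**
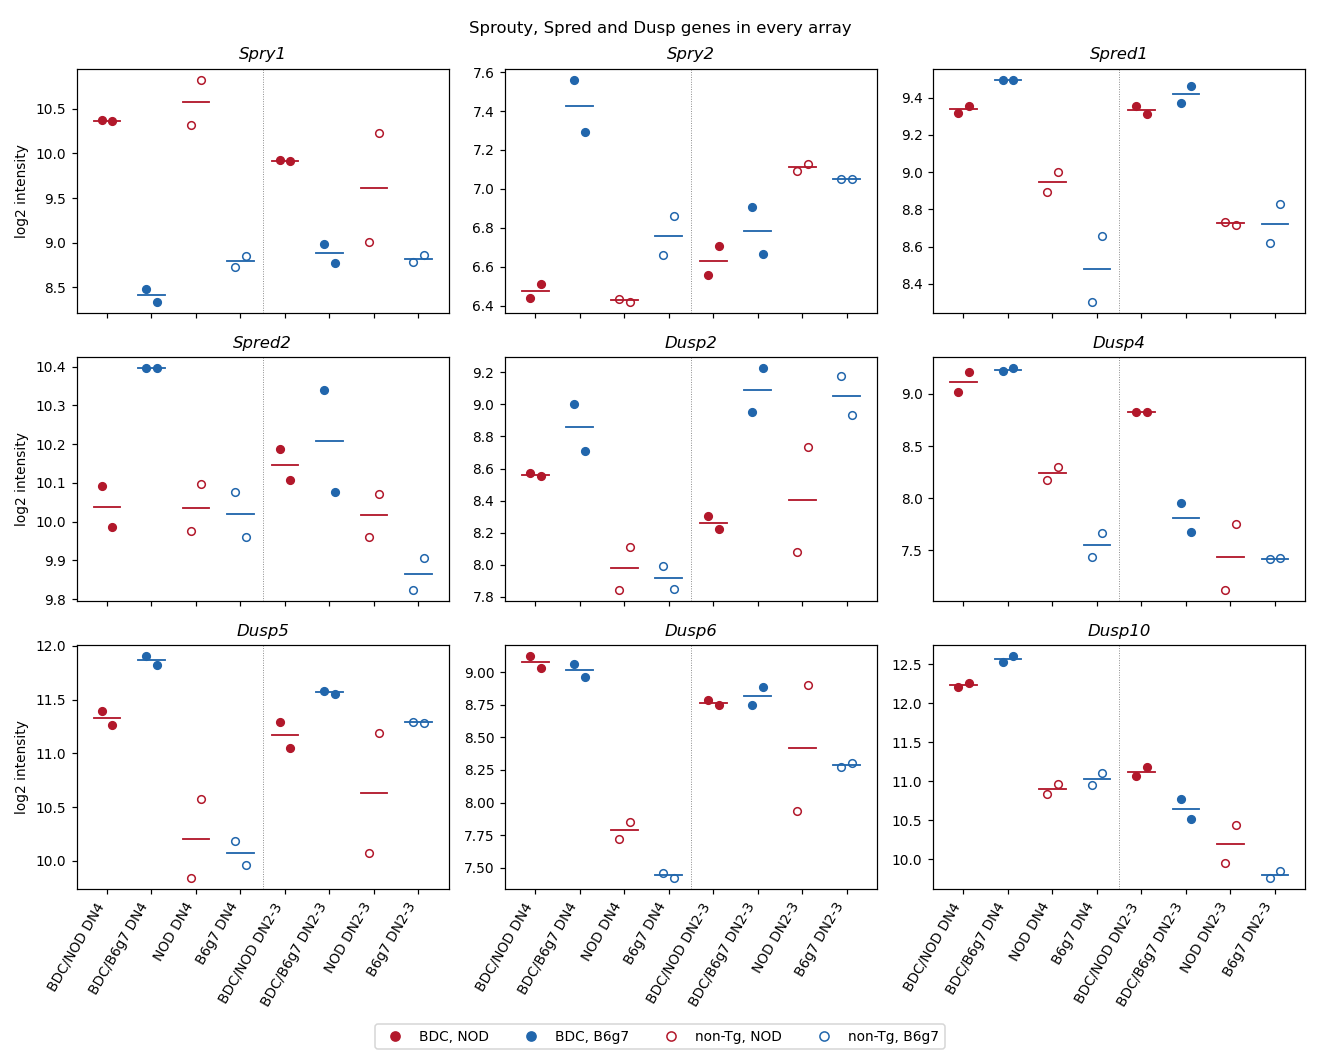
Log2 intensity of each of the 9 genes on each of the 16 arrays. Points are arrays and bars are group means, filled circles are BDC and open circles non-Tg, red is NOD and blue B6g7, with the 4 DN4 groups left of the dotted line and the 4 DN2-3 groups right of it; each panel has its own scale. The 4 BDC DN4 arrays lie above the 4 non-Tg DN4 arrays for Spred1, Dusp2, Dusp4, Dusp5, Dusp6 and Dusp10, and the 8 NOD arrays lie above the 8 B6g7 arrays for Spry1.

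Spry1, a Sprouty protein that restrains RAS signalling after receptor engagement in T cells, separated the arrays by strain. In DN4 cells Spry1 read 10.37 and 10.36 in BDC/NOD against 8.48 and 8.34 in BDC/B6g7, and 10.32 and 10.82 in NOD against 8.73 and 8.85 in B6g7. In DN2-3 cells Spry1 read 9.92 and 9.91 in BDC/NOD against 8.99 and 8.78 in BDC/B6g7, and 9.01 and 10.22 in NOD against 8.78 and 8.86 in B6g7. All 8 NOD arrays were above all 8 B6g7 arrays, a separation seen in that direction for 0.992% of genes tested; the closest were 9.01 in NOD DN2-3 replicate 1 and 8.99 in BDC/B6g7 DN2-3 replicate 1. Averaged over the 4 pairs of groups, Spry1 was 2.62-fold higher in NOD (log2 difference 1.39 ± 0.14, adjusted p = 3.99e-06). It was 1.54 log2 higher without NOD DN2-3 replicate 1 and 1.24 without replicate 2.

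The strain difference of Spry1 was 1.96 ± 0.27 in BDC DN4 cells (3.88-fold, adjusted p = 7.93e-05) and 1.78 ± 0.27 in non-Tg DN4 cells (3.43-fold, adjusted p = 0.00102). It was 1.03 ± 0.27 in BDC DN2-3 cells (adjusted p = 0.0303), a call lost when any array of those 2 groups was left out (0.93 to 1.14, adjusted p from 0.0921 to 0.188) or when the male arrays were (1.13, adjusted p = 0.488). In non-Tg DN2-3 cells the value of 0.80 ± 0.27 missed the threshold (adjusted p = 0.0807) and depended on a single array, being 1.40 without NOD DN2-3 replicate 1 (adjusted p = 3.31e-05) and 0.19 without replicate 2 (adjusted p = 0.342). Across the 8 groups Spry1 was highest in NOD DN4, followed by BDC/NOD DN4, BDC/NOD DN2-3, NOD DN2-3, BDC/B6g7 DN2-3, B6g7 DN2-3, B6g7 DN4 and BDC/B6g7 DN4. Neighbours in this order whose arrays did not overlap were BDC/NOD DN4 and BDC/NOD DN2-3, NOD DN2-3 and BDC/B6g7 DN2-3, and B6g7 DN4 and BDC/B6g7 DN4. The transgene did not move Spry1 past the threshold in any of the 4 contexts, with averages over strains of -0.29 in DN4 (95% interval -0.71 to 0.12, adjusted p = 0.207) and 0.18 in DN2-3 (-0.24 to 0.60, adjusted p = 0.463). Without either NOD DN2-3 array, the same DN4 difference of -0.29 had an adjusted p of 0.0099. It was also called with array weights (adjusted p = 0.027) and with only the arrays compared (adjusted p = 0.018). On B6g7 alone the DN4 difference of -0.38 was called without either NOD DN2-3 array (adjusted p = 0.0162) and with only the arrays compared (adjusted p = 0.0104). The DN2-3 average was -0.12 without NOD DN2-3 replicate 1 and 0.48 without replicate 2 (adjusted p = 0.000828).

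Spry2, the other Sprouty gene, was the dimmest of these probe sets, between 6.42 and 7.56 on all arrays, and 2 groups, BDC/B6g7 DN4 and NOD DN2-3, took it over the limit of 7.05 set for testing. In DN4 cells Spry2 read 7.56 and 7.29 in BDC/B6g7 against 6.66 and 6.86 in B6g7, and 6.44 and 6.51 in BDC/NOD against 6.43 and 6.42 in NOD. In DN2-3 cells Spry2 read 6.91 and 6.67 in BDC/B6g7 against 7.05 and 7.05 in B6g7, and 6.56 and 6.70 in BDC/NOD against 7.09 and 7.13 in NOD. BDC/B6g7 DN4 stood above every other group, and the 4 BDC DN2-3 arrays lay below the 4 non-Tg DN2-3 arrays. The transgene difference of Spry2 therefore had opposite signs at the 2 stages, 0.36 ± 0.08 in DN4 (adjusted p = 0.00173) and -0.37 ± 0.08 in DN2-3 (adjusted p = 0.00206), and the interaction of transgene and stage was 0.73 ± 0.11 (adjusted p = 0.000103). The 2 groups that took Spry2 over the limit lie on the sides that favour these signs. BDC/B6g7 DN4 likewise favours the signs of the DN4 values given next. With no filter these calls remained, but the other group means lay below that limit.

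Within DN4 the transgene difference of Spry2 was 0.67 ± 0.11 on B6g7 (1.59-fold, adjusted p = 0.000212) and 0.05 ± 0.11 on NOD (95% interval -0.20 to 0.29, adjusted p = 0.80). The difference between the strains was -0.62 ± 0.16 (adjusted p = 0.0165), a call lost without B6g7 DN4 replicate 1 (-0.52), NOD DN4 replicate 2 (-0.62), BDC/B6g7 DN4 replicate 1 (-0.48), BDC/NOD DN4 replicate 1 (-0.58) or the 4 male arrays (-0.45). Averaged over contexts, Spry2 was lower in NOD by 0.34 log2 (-0.34 ± 0.06, adjusted p = 0.000315), and in BDC DN4 cells by 0.95 (-0.95 ± 0.11, adjusted p = 2.24e-05). Spry2 ran highest to lowest through BDC/B6g7 DN4, NOD DN2-3, B6g7 DN2-3, BDC/B6g7 DN2-3, B6g7 DN4, BDC/NOD DN2-3, BDC/NOD DN4 and NOD DN4. In this order the arrays of BDC/B6g7 DN2-3 and B6g7 DN4 overlapped, and so did those of B6g7 DN4 and BDC/NOD DN2-3.

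Spred1, which brings neurofibromin to RAS at the membrane, was higher in BDC cells in all 4 contexts. In DN4 cells Spred1 read 9.32 and 9.36 in BDC/NOD against 8.89 and 9.001 in NOD, and 9.49 and 9.50 in BDC/B6g7 against 8.30 and 8.66 in B6g7. In DN2-3 cells Spred1 read 9.36 and 9.31 in BDC/NOD against 8.73 and 8.72 in NOD, and 9.37 and 9.46 in BDC/B6g7 against 8.62 and 8.83 in B6g7. All 8 BDC arrays, between 9.31 and 9.50, were above all 8 non-Tg arrays, between 8.30 and 9.001. The share of all genes tested with that separation was not counted. The transgene difference was 0.70 ± 0.08 in DN4 (1.63-fold, adjusted p = 5.73e-06) and 0.65 ± 0.08 in DN2-3 (1.57-fold, adjusted p = 3.08e-05), and 0.66 in DN2-3 without NOD DN2-3 replicate 1.

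Spred1 showed no transgene by stage interaction past the threshold (0.05, 95% interval -0.19 to 0.29, adjusted p = 0.725). Its transgene difference in DN4 was 1.01 ± 0.11 on B6g7 (2.02-fold, adjusted p = 4.94e-06) and 0.39 ± 0.11 on NOD (1.31-fold, adjusted p = 0.022). The NOD value lost its call when any of the 4 NOD and BDC/NOD DN4 arrays was left out (0.34 to 0.44) or when the male arrays were (0.41, adjusted p = 0.225). The difference between the strains was -0.63 ± 0.16 (adjusted p = 0.0146), and the call was lost without B6g7 DN4 replicate 1 (-0.45, adjusted p = 0.0577), NOD DN4 replicate 2 (-0.57), BDC/NOD DN4 replicate 1 (-0.61) or the male arrays (-0.61). Among non-Tg DN4 cells Spred1 was higher in NOD by 0.47 ± 0.11 (adjusted p = 0.0148), not called after quantile normalization was repeated (0.27, adjusted p = 0.167), without B6g7 DN4 replicate 1 (0.29), without NOD DN4 replicate 2 (0.41) or without the male arrays (0.47, adjusted p = 0.106). The order of Spred1 was BDC/B6g7 DN4, BDC/B6g7 DN2-3, BDC/NOD DN4, BDC/NOD DN2-3, NOD DN4, NOD DN2-3, B6g7 DN2-3 and B6g7 DN4. Arrays overlapped between BDC/NOD DN4 and BDC/NOD DN2-3, between NOD DN2-3 and B6g7 DN2-3, and between B6g7 DN2-3 and B6g7 DN4.

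Spred2, a Spred protein that also limits RAS to ERK signalling, moved little. Its brightest probe set read 9.82 to 10.40 over all 16 arrays. In DN4 cells Spred2 read 10.40 and 10.40 in BDC/B6g7 against 10.08 and 9.96 in B6g7, and 10.09 and 9.99 in BDC/NOD against 9.98 and 10.10 in NOD. In DN2-3 cells Spred2 read 10.34 and 10.08 in BDC/B6g7 against 9.82 and 9.91 in B6g7, and 10.19 and 10.11 in BDC/NOD against 9.96 and 10.07 in NOD. The 2 BDC/B6g7 DN4 arrays were the highest, and the NOD and BDC/NOD DN4 arrays overlapped. The averages were 0.19 ± 0.07 in DN4 (adjusted p = 0.0368) and 0.24 ± 0.07 in DN2-3 (adjusted p = 0.0156). Both calls were lost with sex as a term (0.13 and 0.18) and without the male arrays (0.16 and 0.15). The DN4 call was also lost without B6g7 DN4 replicate 2, NOD DN4 replicate 1, either BDC/B6g7 DN4 array or BDC/NOD DN4 replicate 1 (0.16 to 0.19), and the DN2-3 call without replicate 1 of B6g7, BDC/B6g7 or BDC/NOD DN2-3 (0.17 to 0.22). In B6g7 DN4 cells alone the Spred2 difference was 0.38 ± 0.10 (1.30-fold, adjusted p = 0.00612), and in NOD DN4 cells it was 0.00 with a 95% interval of -0.22 to 0.22. The other Spred2 probe set gave 0.34 in DN4 (adjusted p = 0.00665) and 0.37 in DN2-3 (adjusted p = 0.00572). Spred2 was highest in BDC/B6g7 DN4, then BDC/B6g7 DN2-3, BDC/NOD DN2-3, BDC/NOD DN4, NOD DN4, B6g7 DN4, NOD DN2-3 and B6g7 DN2-3, and neighbours overlapped except at the first step, at the third and at the last.

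Dusp2, a nuclear phosphatase of ERK and p38 found mainly in blood cells, differed by transgene in DN4 cells. In DN4 cells Dusp2 read 8.57 and 8.55 in BDC/NOD against 7.84 and 8.11 in NOD, and 9.005 and 8.71 in BDC/B6g7 against 7.99 and 7.85 in B6g7. In DN2-3 cells Dusp2 read 8.30 and 8.22 in BDC/NOD against 8.08 and 8.73 in NOD, and 8.95 and 9.23 in BDC/B6g7 against 9.18 and 8.93 in B6g7. The DN4 arrays of the 2 genotypes did not overlap, while the DN2-3 arrays did on both strains. The transgene difference of Dusp2 was 0.76 ± 0.13 in DN4 (1.70-fold, adjusted p = 0.000212) and -0.06 ± 0.13 in DN2-3 (95% interval -0.34 to 0.23, adjusted p = 0.744), and the interaction with stage was 0.82 ± 0.18 (adjusted p = 0.00187). The DN2-3 value rested on the NOD arrays, at -0.22 without NOD DN2-3 replicate 1 (adjusted p = 0.0815) and 0.11 without replicate 2 (adjusted p = 0.364). Without replicate 1, Dusp2 was also called lower in BDC on NOD alone (-0.47, adjusted p = 0.0347), and the interaction with stage was 0.98; without replicate 2 it was 0.65. Without the 4 male arrays the interaction was 0.69 with an adjusted p of 0.0688.

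By strain, Dusp2 was lower in NOD by 0.43 log2 on average (-0.43 ± 0.09, adjusted p = 0.00225; -0.35 without NOD DN2-3 replicate 1), with calls in the DN2-3 groups: -0.83 ± 0.18 in BDC DN2-3 (adjusted p = 0.0117) and -0.65 ± 0.18 in non-Tg DN2-3 (adjusted p = 0.0411), against -0.30 ± 0.18 in BDC DN4 (adjusted p = 0.227) and 0.06 ± 0.18 in non-Tg DN4 (adjusted p = 0.834). Whether the strain difference of Dusp2 itself differed between stages was not tested. The non-Tg DN2-3 value fell to -0.32 without NOD DN2-3 replicate 1 (adjusted p = 0.266) and lost its call in 14 of 26 alternatives. The BDC DN2-3 call was lost without BDC/B6g7 DN2-3 replicate 2 (-0.69), either BDC/NOD DN2-3 array (-0.87 and -0.79) or the male arrays (-1.01). Dusp2 was highest in BDC/B6g7 DN2-3, then B6g7 DN2-3, BDC/B6g7 DN4, BDC/NOD DN4, NOD DN2-3, BDC/NOD DN2-3, NOD DN4 and B6g7 DN4. Neighbouring groups overlapped except BDC/B6g7 DN4 with BDC/NOD DN4 and BDC/NOD DN2-3 with NOD DN4.

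Dusp4, a nuclear phosphatase of ERK and JNK, was higher in BDC cells at both stages. In DN4 cells Dusp4 read 9.01 and 9.21 in BDC/NOD against 8.18 and 8.30 in NOD, and 9.22 and 9.25 in BDC/B6g7 against 7.43 and 7.66 in B6g7. In DN2-3 cells Dusp4 read 8.82 and 8.83 in BDC/NOD against 7.12 and 7.75 in NOD, and 7.95 and 7.68 in BDC/B6g7 against 7.41 and 7.43 in B6g7. The DN4 levels of the 2 BDC strains were close, while in DN2-3 both BDC/NOD arrays were above every other DN2-3 array. The transgene difference of Dusp4 was 1.28 ± 0.12 in DN4 (2.43-fold, adjusted p = 8.18e-07) and 0.89 ± 0.12 in DN2-3 (1.85-fold, adjusted p = 5.72e-05), and 0.73 in DN2-3 without NOD DN2-3 replicate 1.

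The strain that showed the larger Dusp4 difference was not the same at the 2 stages. In DN4 the transgene difference was 0.88 ± 0.17 on NOD (1.83-fold) and 1.68 ± 0.17 on B6g7 (3.21-fold), an interaction of -0.81 ± 0.23 (adjusted p = 0.0278). That call was lost without any of 6 of the 8 DN4 arrays, B6g7 DN4 replicate 1 (-0.69, adjusted p = 0.108), both NOD DN4 arrays (-0.87 and -0.75), both BDC/B6g7 DN4 arrays (-0.82 and -0.79) and BDC/NOD DN4 replicate 1 (-0.71), and without the male arrays (-0.72). In DN2-3 the transgene difference was 1.39 ± 0.17 on NOD (2.62-fold, adjusted p = 6.97e-05), at 1.07 without NOD DN2-3 replicate 1 and 1.70 without replicate 2. With only the arrays compared, that NOD value was not called (adjusted p = 0.0503). On B6g7 the difference was 0.39 ± 0.17 (adjusted p = 0.0933), and the interaction of 1.00 ± 0.23 missed the threshold (adjusted p = 0.069). Without NOD DN2-3 replicate 1 that interaction was 0.68 (adjusted p = 0.0447), and without replicate 2 it was 1.31 (adjusted p = 0.000246). Dusp4 was higher in NOD in BDC DN2-3 cells (1.01 ± 0.17, adjusted p = 0.00144; 1.15 and adjusted p = 0.124 without the male arrays) and in non-Tg DN4 cells (0.69 ± 0.17, adjusted p = 0.0148; not called when B6g7 DN4 replicate 1 was left out at 0.57, without NOD DN4 replicate 2 at 0.63 or when male arrays were left out). Dusp4 ran from BDC/B6g7 DN4 through BDC/NOD DN4, BDC/NOD DN2-3, NOD DN4, BDC/B6g7 DN2-3, B6g7 DN4 and NOD DN2-3 down to B6g7 DN2-3, and only the last 3 groups overlapped with a neighbour.

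Dusp5, a nuclear phosphatase that acts on ERK alone among the MAP kinases, had the largest fold difference of the 9 genes between BDC and non-Tg DN4 cells. In DN4 cells Dusp5 read 11.40 and 11.27 in BDC/NOD against 9.84 and 10.57 in NOD, and 11.90 and 11.83 in BDC/B6g7 against 10.18 and 9.96 in B6g7. In DN2-3 cells Dusp5 read 11.29 and 11.05 in BDC/NOD against 10.07 and 11.19 in NOD, and 11.58 and 11.55 in BDC/B6g7 against 11.29 and 11.29 in B6g7. The 4 BDC DN4 arrays were above the 4 non-Tg DN4 arrays, and the DN2-3 arrays of NOD overlapped between genotypes. The transgene difference of Dusp5 was 1.46 ± 0.20 in DN4 (2.75-fold, adjusted p = 2.96e-05) and 0.41 ± 0.20 in DN2-3 (95% interval -0.02 to 0.84, adjusted p = 0.105), and the interaction was 1.05 ± 0.28 (adjusted p = 0.00579). Without NOD DN2-3 replicate 1 the DN2-3 difference of Dusp5 was 0.13 (adjusted p = 0.442) and the interaction 1.33, and without replicate 2 they were 0.69 (adjusted p = 0.000394) and 0.77.

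On single strains the DN4 difference of Dusp5 was 1.79 ± 0.28 on B6g7 (3.47-fold, adjusted p = 0.000106) and 1.13 ± 0.28 on NOD (2.18-fold, adjusted p = 0.0103). The NOD value was not called without NOD DN4 replicate 1 (0.76, adjusted p = 0.129), BDC/NOD DN4 replicate 1 (1.06, adjusted p = 0.0741) or the male arrays (1.06, adjusted p = 0.206). The transgene by stage interaction of Dusp5 was 1.07 with an adjusted p of 0.0851 without the male arrays. Dusp5 ran from BDC/B6g7 DN4 through BDC/B6g7 DN2-3, BDC/NOD DN4, B6g7 DN2-3, BDC/NOD DN2-3, NOD DN2-3 and NOD DN4 down to B6g7 DN4, and the arrays of neighbouring groups overlapped from BDC/NOD DN4 downwards.

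Dusp6, the cytoplasmic phosphatase that prefers ERK, was at its lowest in non-Tg DN4 cells. In DN4 cells Dusp6 read 9.12 and 9.03 in BDC/NOD against 7.72 and 7.85 in NOD, and 9.07 and 8.96 in BDC/B6g7 against 7.46 and 7.42 in B6g7. In DN2-3 cells Dusp6 read 8.78 and 8.75 in BDC/NOD against 7.93 and 8.90 in NOD, and 8.75 and 8.89 in BDC/B6g7 against 8.27 and 8.31 in B6g7. The BDC DN4 arrays were the 4 highest and the non-Tg DN4 arrays the 4 lowest of the 16. The transgene difference was 1.43 ± 0.15 in DN4 (2.70-fold, adjusted p = 2.31e-06), with 1.29 ± 0.21 on NOD (adjusted p = 0.000662) and 1.57 ± 0.21 on B6g7 (adjusted p = 2.4e-05); without the male arrays the NOD value was 1.25 with an adjusted p of 0.0646.

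In DN2-3 cells the Dusp6 difference was 0.44 ± 0.15 (1.36-fold, adjusted p = 0.0248). It was 0.20 without NOD DN2-3 replicate 1 (adjusted p = 0.0204) and 0.68 without replicate 2, and it was not called without either B6g7 DN2-3 array (0.43 and 0.45), BDC/B6g7 DN2-3 replicate 2 (0.41), either BDC/NOD DN2-3 array (0.43 and 0.45), the male arrays (0.46) or with sex as a term (0.43). The transgene by stage interaction of Dusp6 was 0.99 ± 0.21 (adjusted p = 0.00108), 1.24 without NOD DN2-3 replicate 1 and 0.75 without replicate 2, and 0.92 with an adjusted p of 0.053 without the male arrays. No strain difference of Dusp6 was called, with an average of 0.12 (95% interval -0.10 to 0.35), although the average was 0.24 without NOD DN2-3 replicate 1 (adjusted p = 0.000294). The order of Dusp6 was BDC/NOD DN4, BDC/B6g7 DN4, BDC/B6g7 DN2-3, BDC/NOD DN2-3, NOD DN2-3, B6g7 DN2-3, NOD DN4 and B6g7 DN4. Neighbours did not overlap at 3 steps, between BDC/B6g7 DN4 and BDC/B6g7 DN2-3, between B6g7 DN2-3 and NOD DN4, and between NOD DN4 and B6g7 DN4.

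Dusp10, the phosphatase of p38 and JNK, was higher in BDC cells in all 4 contexts and also higher at DN4 than at DN2-3 in both genotypes. In DN4 cells Dusp10 read 12.21 and 12.26 in BDC/NOD against 10.84 and 10.96 in NOD, and 12.53 and 12.60 in BDC/B6g7 against 10.95 and 11.11 in B6g7. In DN2-3 cells Dusp10 read 11.06 and 11.18 in BDC/NOD against 9.95 and 10.45 in NOD, and 10.77 and 10.52 in BDC/B6g7 against 9.76 and 9.85 in B6g7. At each stage the 4 BDC arrays were above the 4 non-Tg arrays. The transgene difference of Dusp10 was 1.44 ± 0.10 in DN4 (2.71-fold, adjusted p = 5.93e-08) and 0.88 ± 0.10 in DN2-3 (1.84-fold, adjusted p = 1.57e-05), 0.76 without NOD DN2-3 replicate 1. The interaction of transgene and stage was 0.56 ± 0.14 (adjusted p = 0.00394), 0.68 without NOD DN2-3 replicate 1 and 0.43 without replicate 2. Dusp10 was highest in BDC/B6g7 DN4, followed by BDC/NOD DN4, BDC/NOD DN2-3, B6g7 DN4, NOD DN4, BDC/B6g7 DN2-3, NOD DN2-3 and B6g7 DN2-3. BDC/NOD DN2-3 overlapped with B6g7 DN4, and B6g7 DN4 with NOD DN4, while the other neighbours did not overlap.

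**Figure D2:**
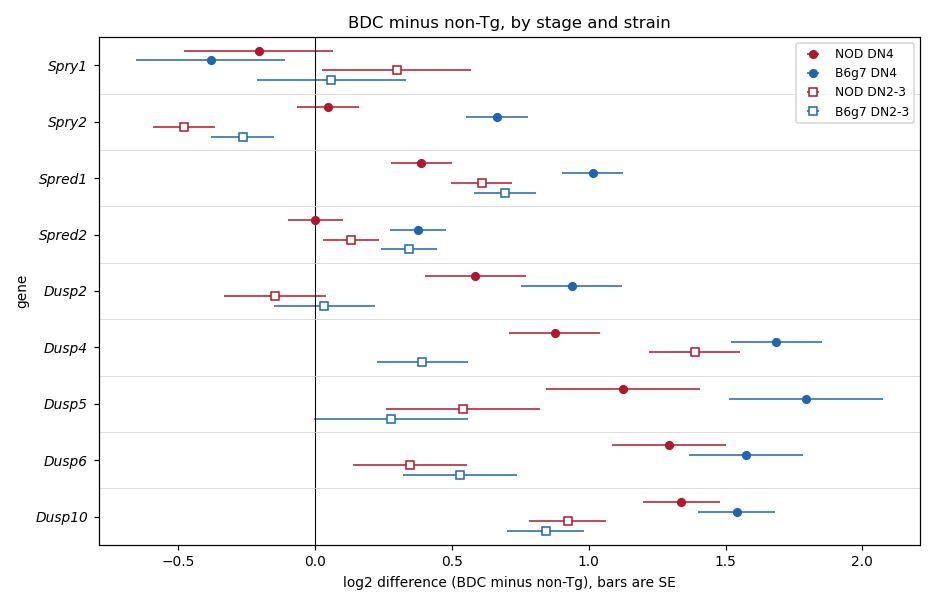
BDC minus non-Tg log2 difference of each gene in DN4 cells (filled circles) and DN2-3 cells (open squares), red for NOD and blue for B6g7; horizontal bars are the standard error of the limma model with 2 arrays per group, and the vertical line marks no difference. Spred1 and Dusp10 lie right of the line in all 4 contexts, at 0.39 to 1.01 and 0.84 to 1.54, while Dusp2, Dusp5 and Dusp6 lie further right in DN4 than in DN2-3 cells on both strains.

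The transgene difference depended on the stage for 5 of the 9 genes. Among them, Spry2 passed the limit for testing only through groups on the positive side of this interaction, as given above. Spry2, Dusp2, Dusp5, Dusp6 and Dusp10 had a positive transgene by stage interaction past the threshold and none had a negative interaction, where 26.3% of genes tested were positive and 31.5% negative; the median was 0.56 for the 9 genes and -0.04 for all. For Dusp4 the interaction of 0.39 ± 0.17 missed the threshold (adjusted p = 0.059), although it passed with the replicate block within strain and genotype (adjusted p = 0.0246), without NOD DN2-3 replicate 1 (0.55), without BDC/B6g7 DN2-3 replicate 1 (0.46) and without B6g7 DN4 replicate 2 (0.45). In DN4 the transgene by strain interaction passed for 3 genes, Spry2, Spred1 and Dusp4, all with a smaller transgene difference on NOD. Of genes tested, 9.2% had a positive and 10.9% a negative interaction. These 3 calls were lost when some single DN4 arrays were left out, as given above for each gene. For Spred2 the limma value of -0.37 missed the threshold (adjusted p = 0.0852), while its other probe set gave -0.61 (adjusted p = 0.0368). No gene passed for the strain interaction in DN2-3 cells by limma (0.327% of genes tested positive, 0.823% negative), and Dusp4 at 1.00 was the nearest. Besides Dusp4, that interaction passed for Dusp6 without NOD DN2-3 replicate 1 (-0.67) and for Spry1 (0.84) and Dusp5 (0.82) without replicate 2. On the single strains, 8 of the 9 genes were higher in BDC DN4 cells on B6g7 (30.1% of genes tested higher, 29.2% lower) and 6 on NOD (10.6% higher, 14.8% lower). In DN2-3 cells 3 genes were higher on B6g7 (16.8% higher, 12.5% lower), and on NOD 3 were higher and 1 lower (21.5% higher, 14.1% lower). Among these single-strain calls, Dusp2 in NOD DN4 (0.59 ± 0.18) was lost without NOD DN4 replicate 1 (0.45), either BDC/NOD DN4 array (0.58 and 0.60) or with sex as a term (0.57). Spred2 in B6g7 DN2-3 (0.34 ± 0.10) was lost without either B6g7 DN2-3 array or BDC/B6g7 DN2-3 replicate 1, and Spry2 in NOD DN2-3 (-0.48 ± 0.11) without BDC/NOD DN2-3 replicate 1 (-0.41). Without the male arrays, Dusp10 in B6g7 DN2-3 was 0.72 (adjusted p = 0.0655), Spred1 in NOD DN2-3 was 0.59 (adjusted p = 0.0795) and Dusp4 in NOD DN4 was 0.98 (adjusted p = 0.0559).

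The step between the stages was compared within each genotype. Dusp2, Dusp5 and Dusp6 went down in non-Tg mice without a change called in BDC mice by the main tests. In non-Tg mice 2 genes were higher at DN4 than at DN2-3 and 4 were lower (26.6% of genes tested higher, 21.5% lower). Dusp2 fell by 0.78 log2 (SE 0.13, adjusted p = 0.000276), Dusp5 by 0.82 (SE 0.20, adjusted p = 0.00396), Dusp6 by 0.74 (SE 0.15, adjusted p = 0.00103) and Spry2 by 0.49 (SE 0.08, adjusted p = 0.000259). Dusp10 rose by 0.96 ± 0.10 (1.95-fold, adjusted p = 4.96e-06) and Dusp4 by 0.46 ± 0.12 (1.38-fold, adjusted p = 0.00528). Without NOD DN2-3 replicate 1 these changes were -0.95, -1.10, -0.98, -0.50, 0.84 and 0.31 for Dusp2, Dusp5, Dusp6, Spry2, Dusp10 and Dusp4. Without replicate 2 they were -0.62, -0.54, -0.50, -0.48, 1.09 and 0.62 in the same order. Spry1 changed by 0.46 ± 0.19 (adjusted p = 0.0637) in non-Tg mice, called with the replicate block within strain and genotype (adjusted p = 0.0172), without NOD DN2-3 replicate 2 (0.77) and without NOD DN4 replicate 1 (0.59), but at 0.16 without NOD DN2-3 replicate 1.

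In BDC mice 3 genes were higher at DN4 and none lower (22% of genes tested higher, 29.1% lower). Dusp10 rose by 1.52 ± 0.10 (2.87-fold, adjusted p = 1.18e-07) and Dusp4 by 0.85 ± 0.12 (1.81-fold, adjusted p = 5.15e-05). Spry2 rose by 0.24 ± 0.08 (adjusted p = 0.0224), a call lost without BDC/B6g7 DN2-3 replicate 2 (0.18), BDC/NOD DN2-3 replicate 1 (0.21), BDC/B6g7 DN4 replicate 1 (0.17), BDC/NOD DN4 replicate 2 (0.22) or the male arrays (0.22). For Dusp2, Dusp5 and Dusp6 the stage differences in BDC mice were 0.03 (95% interval -0.25 to 0.32), 0.23 (-0.20 to 0.66) and 0.25 (-0.06 to 0.57). The Dusp6 value was called with only the arrays compared (adjusted p = 0.0026), with array weights (adjusted p = 0.00476) and without either NOD DN2-3 array (adjusted p = 0.00155). The Dusp5 value was called with only the arrays compared (adjusted p = 0.0105). Spred1 and Spred2 passed the threshold at neither genotype, with values from -0.01 to 0.09. The differences of these stage changes between genotypes are the transgene by stage interactions given above.

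**Figure D3:**
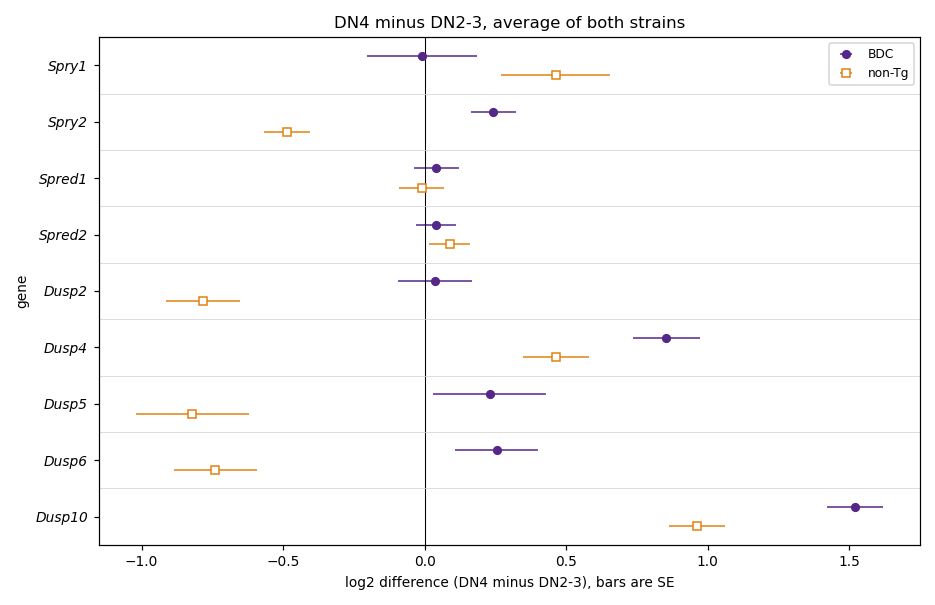
DN4 minus DN2-3 log2 difference of each gene averaged over strains, filled purple circles for BDC and open orange squares for non-Tg; horizontal bars are the standard error of the limma model and the vertical line marks no difference. Dusp2, Dusp5, Dusp6 and Spry2 lie left of the line in non-Tg cells, at -0.78, -0.82, -0.74 and -0.49, and at or right of it in BDC cells, and Dusp10 lies right of it in both.

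Averaged over the 4 pairs of groups, the strain comparison called 4 of the 9 genes, with Spry1 and Dusp4 higher and Spry2 and Dusp2 lower in NOD (26.8% of genes tested higher, 14.9% lower). Dusp4 averaged 0.40 ± 0.08 (1.32-fold, adjusted p = 0.00176), 0.48 without NOD DN2-3 replicate 1 and 0.32 without replicate 2. Dusp5 at -0.36 ± 0.14 missed the threshold (adjusted p = 0.0532), and passed at -0.22 without NOD DN2-3 replicate 1 (adjusted p = 0.0451) and at -0.50 without replicate 2 (adjusted p = 0.000261). Dusp10 at 0.10 passed at 0.17 without replicate 1 (adjusted p = 0.0136). Within BDC DN4 cells Spry1 was higher and Spry2 and Spred2 lower in NOD (25.8% higher, 15.3% lower); the Spred2 value of -0.36 ± 0.10 (adjusted p = 0.0126) was not called in its other probe set (-0.23, adjusted p = 0.184), nor without either BDC/B6g7 DN4 array (-0.36), BDC/NOD DN4 replicate 2 (-0.30) or the male arrays (-0.41). Among non-Tg mice at DN4, Spry1, Spred1 and Dusp4 were higher (14% higher, 4.75% lower), while the median of all genes tested was itself 0.13 higher in NOD there. In BDC DN2-3 cells Spry1 and Dusp4 were higher and Dusp2 lower (3.53% higher, 5.66% lower), and in non-Tg DN2-3 cells Dusp2 alone was called (5% higher, 5.58% lower). Without NOD DN2-3 replicate 1, Spry1, Dusp6 (0.61) and Dusp10 (0.64) were called there in place of Dusp2, and without replicate 2 Dusp2 (-0.98), Dusp5 (-1.22) and Dusp6 (-0.35).

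**Figure D4:**
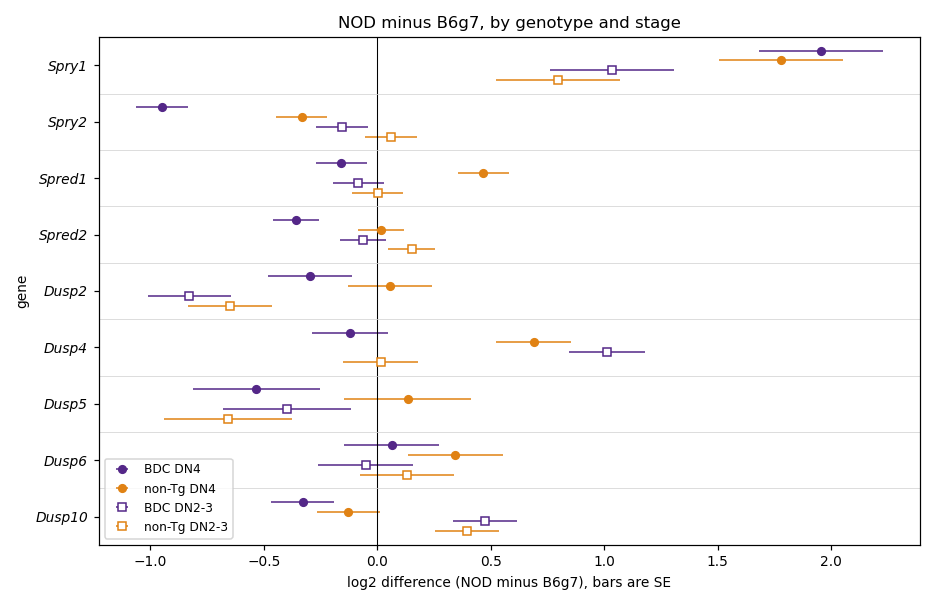
NOD minus B6g7 log2 difference of each gene in DN4 cells (filled circles) and DN2-3 cells (open squares), purple for BDC and orange for non-Tg; horizontal bars are the standard error of the limma model with 2 arrays per group and the vertical line marks no difference. Spry1 lies right of the line in all 4 contexts, from 0.80 to 1.96, and Spry2 in BDC DN4 cells is the value farthest to the left, at -0.95.

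Other genes of the same families and of the pathway were read from lists chosen by function, with earlier results of these data known. Their counts stand beside 28.7% of all genes tested higher and 30.8% lower in BDC DN4 cells, and 29.8% higher and 19.3% lower in BDC DN2-3 cells. Of 8 further Sprouty, Spred and MAP kinase phosphatase genes, Spry3 and Spry4 were not tested because they lay under the limit, and Spry3 read at most 5.52, below background. Of the 6 tested, 3 were higher and 1 lower in BDC DN4 cells (median 0.23), and 1 was higher and 1 lower in BDC DN2-3 cells (median -0.11). Dusp1, an immediate-early nuclear phosphatase, differed by 1.71 ± 0.28 in DN4 (adjusted p = 0.000125) and -0.17 ± 0.28 in DN2-3. Dusp16, a phosphatase of JNK and p38, was higher in DN4 (0.27 ± 0.10) and lower in DN2-3 (-0.59 ± 0.10). Spred3 was higher in DN4 (0.38 ± 0.08) and Dusp9 lower (-0.22 ± 0.06), Dusp7, which prefers ERK, was higher in DN2-3 (0.79 ± 0.13), and Dusp8 was not called at either stage.

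In the RAS to ERK cascade, 22 of 28 listed genes were matched and 21 tested, of which 14 were higher and none lower in BDC DN4 cells (median 0.43), while 8 were higher and 8 lower in BDC DN2-3 cells (median 0.09). Rasgrp1, the main RAS exchange factor of thymocytes, was higher by 1.39 ± 0.07 in DN4 and by 0.77 ± 0.07 in DN2-3, and its relative Rasgrp2 by 1.03 ± 0.07 and 0.88 ± 0.07. The adaptor Shc1 differed by 0.81 ± 0.16 and 0.71 ± 0.16, and Rasgrp4 by 0.75 ± 0.07 and 0.35 ± 0.07. Among other brakes on RAS, 8 of 12 tested genes were higher and 1 lower in DN4 (median 0.41), and 7 were higher and 1 lower in DN2-3 (median 0.28). The RAS GTPase-activating protein gene Rasa3 was higher by 1.82 ± 0.11 in DN4 and by 0.70 ± 0.11 in DN2-3, Rasal3 differed by 1.42 ± 0.12 and -0.07 ± 0.12, and the inhibitory adaptor genes Dok2 and Sh2d2a were higher in DN4 by 1.42 ± 0.09 and 0.86 ± 0.09. Of 14 tested genes of the p38 and JNK cascade, 5 were higher and none lower in DN4 (median 0.06), led by Map3k1 at 0.78 ± 0.10, and 5 were higher and 2 lower in DN2-3 (median 0.14). Of all genes tested, 28.7% were higher and 30.8% lower in DN4 (median -0.03), and 29.8% higher and 19.3% lower in DN2-3 (median 0.05).

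Genes known to be induced by ERK were read in the same way. Of 14 tested, 8 were higher and 2 lower in BDC DN4 cells (median 0.66), and 2 were higher and 3 lower in BDC DN2-3 cells (median -0.08), beside the same shares of all genes. The ETS factor gene Etv5 was higher by 4.00 ± 0.07 in DN4 and by 3.92 ± 0.07 in DN2-3. The immediate-early transcription factor genes Fosl2, Egr2, Fos, Junb and Egr1 were higher in DN4 by 1.57 ± 0.29, 1.04 ± 0.10, 0.97 ± 0.10, 0.94 ± 0.14 and 0.73 ± 0.11, and among them Junb was lower in DN2-3 (-0.78 ± 0.14). Elk3 was higher in DN4 (0.84 ± 0.07) and lower in DN2-3 (-0.69 ± 0.07), and Ier2 was higher in DN4 (0.58 ± 0.10). Myc was lower at both stages (-0.93 ± 0.15 and -0.52 ± 0.15) and Phlda1 was lower in DN4 (-0.52 ± 0.09), while Id3 was higher in DN2-3 (0.95 ± 0.09) and not called in DN4 (-0.07 ± 0.09). Egr3, Fosl1 and Ccnd1 were called at neither stage, and Etv4 and Ier3 were not tested. At DN4 compared with DN2-3, 7 of these 14 genes were higher and 2 lower in BDC mice (22% and 29.1% of all genes tested), and 3 were higher and 6 lower in non-Tg mice (26.6% and 21.5%).

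**Figure D5:**
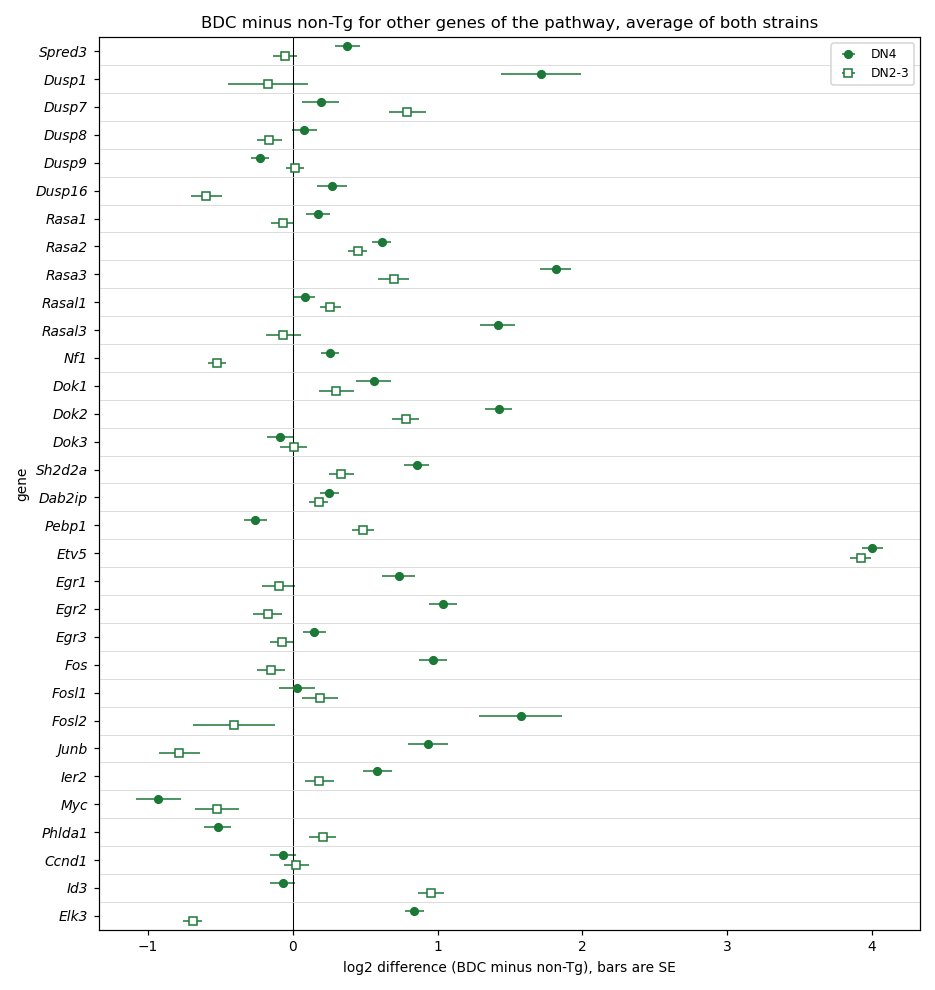
BDC minus non-Tg log2 difference, averaged over strains, of the tested genes of the lists of further Sprouty, Spred and MAP kinase phosphatase genes, brakes on RAS and ERK-induced genes, in that order down the page; filled circles are DN4, open squares DN2-3, bars are the standard error of the limma model and the vertical line marks no difference. Etv5 lies near 4 at both stages, and Dusp1, Fosl2, Junb, Elk3 and Rasal3 lie right of the line in DN4 and at or left of it in DN2-3.

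Among the 9 genes, levels over the 8 group means ran most alike for Dusp5 and Dusp6 (Pearson r = 0.90), Dusp4 and Dusp10 (0.89), Dusp2 and Dusp5 (0.86) and Spred1 and Dusp6 (0.86), and were most opposed for Spry1 and Spry2 (-0.78). These 8 means share arrays and normalisation, and the values describe the groups only. Across all tested genes, the closest patterns over the 8 group means were those of Rcbtb1, Mboat7 and Txndc11 for Spred1 (r = 0.995, 0.989 and 0.986), of Nck2, Slc25a45 and Pex6 for Dusp5 (0.989, 0.983 and 0.983), of Nat8f4, Lsm6 and Sepsecs for Spry1 (0.984, 0.979 and 0.974), and of Pex7, Lrp12 and Abca7 for Dusp2 (0.979, 0.969 and 0.966). For Spred2 they were Il2rb, Stk24 and Nab2 (0.971, 0.961 and 0.955), for Dusp10 Lysmd3, Cd164 and Arhgef11 (0.970, 0.969 and 0.966), for Spry2 Rpgrip1, Nlrc5 and Eml2 (0.964, 0.943 and 0.940), for Dusp4 Sgpl1, Vps26b and Rwdd2a (0.964, 0.961 and 0.956), and for Dusp6 Gfra1, Tnfrsf18 and Slc45a3 (0.955, 0.954 and 0.954). With 8 points per gene and 10689 genes searched, high values of r are reached by many genes.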

How the data were processed

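Gene expression was measured in 16 thymocyte samples, 1 Affymetrix array each, from RNA extracted with Trizol and labelled with biotin, per the labels. The authors deposited RMA values from Affymetrix Power Tools, per the submitters' processing notes, as linear intensity between 5.82 and 21466 for 25108 probe sets; the sources used here give no versions and no genome build. The log2 of each deposited value was taken, with no pseudocount. One gene symbol was listed for 21157 probe sets, several for 1341 and none for 2610, and the brightest probe set of a gene was kept (2 probe sets for Spred2, 1 for each other gene reported). Genes entered the tests if their highest group mean was at least 132.9 (7.05 log2), the median over named probe sets, which left 10689. Background was set at 5.98 log2, the highest signal of 3 Y-linked probe sets on female arrays. The number of arrays limits the precision.

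Tests used limma 3.58.1 in R 4.3.3 (files read with data.table, version 1.17.8), with lmFit on 8 group means over all 16 arrays and eBayes (8 residual and 5.06 prior degrees of freedom). They were two-sided, with Benjamini-Hochberg adjustment over all genes of a comparison at 0.05. The code was also run on simulated arrays with independent errors, equal spread in all groups and few changed genes. These data differ in all of that, so the run does not give the error rates here. Figures were drawn with matplotlib 3.10.9 in Python 3.11.15. The genes reported and the gene lists were chosen with earlier results of these data known. Named are all 9 genes, the 3 tested genes nearest to each by Pearson's r over group means, the further Sprouty, Spred, phosphatase and ERK-induced genes, and up to 4 called genes with the largest difference of each other list. Of 157 list entries 140 were matched, and the others were not analysed here.

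Replicate numbers come from the labels. The differences between replicates 1 and 2 correlated between DN4 and DN2-3 of the same strain and genotype with r from 0.10 to 0.58. Over all pairs of groups r ran from -0.25 to 0.58. BDC/NOD DN2-3 with BDC/B6g7 DN4, groups of unlike strain and stage, had an r of 0.41. In BDC groups the replicate number also goes with sex. Whether the numbers pair samples is therefore undecided, and the main tests used no pairing. Alternatives were array weights, sex as a covariate, a fixed replicate block, the replicate within strain and genotype as a random block, repeated quantile normalization, median centring, no filter, averaged probe sets, only the arrays compared, and leaving out the 4 male arrays or each array in turn.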

Additional observations from a re-analysis of the deposited data

Results flagged for a closer look

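For 5 genes the BDC minus non-Tg difference was larger in DN4 than in DN2-3 cells by a test of the difference itself (limma interaction, average of strains): Spry2 by 0.73 log2 (adjusted p = 0.000103), Dusp2 by 0.82 (adjusted p = 0.00187), Dusp5 by 1.05 (adjusted p = 0.00579), Dusp6 by 0.99 (adjusted p = 0.00108) and Dusp10 by 0.56 (adjusted p = 0.00394). For 3 genes the DN4 difference was smaller on NOD than on B6g7: Spry2 (-0.62, adjusted p = 0.0165), Spred1 (-0.63, adjusted p = 0.0146) and Dusp4 (-0.81, adjusted p = 0.0278). These 3 calls were lost when some single DN4 arrays or the 4 male arrays were left out, as given above. Spry2 lay near the limit for testing and passed it only through BDC/B6g7 DN4 and NOD DN2-3, which favours the signs of its values here. Of all genes tested 26.3% had a positive and 31.5% a negative stage interaction, and 9.2% and 10.9% a positive and a negative strain interaction in DN4. Groups of 2 arrays are too small for a test of an outlying value. The 2 NOD DN2-3 arrays differed most between replicates. Without replicate 1 the stage interactions were 0.74 for Spry2, 0.98 for Dusp2, 1.33 for Dusp5, 1.24 for Dusp6 and 0.68 for Dusp10. Without replicate 2 they were 0.72, 0.65, 0.77, 0.75 and 0.43 in the same order. Without the 4 male arrays the Dusp2, Dusp5 and Dusp6 values were 0.69, 1.07 and 0.92 and were no longer called, as given above.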

How the results depend on the processing

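Over the 9 genes and 16 comparisons, 3519 of 3726 alternative values kept their side of the threshold and their direction, 115 fell short of it, 91 newly passed and 1 reversed. That value was Dusp6 between NOD and B6g7 in non-Tg DN2-3 cells, which ranged from -0.35 to 0.61 with 1 array left out (0.13 with all). The higher BDC values in DN4 cells, averaged over strains, held under every alternative run for Spry2, Spred1, Dusp2, Dusp4, Dusp5, Dusp6 and Dusp10, but not for Spred2. The replicate blocks changed 4 calls, which were Spry1 between stages in non-Tg cells, the Dusp4 transgene by stage interaction and, for strain, Spry2 in non-Tg DN4 (adjusted p = 0.049) and Dusp10 in BDC DN2-3 cells (adjusted p = 0.0426), and no other call of these genes. Leaving out male arrays leaves 1 array in each BDC group, which is assumed to vary like the others.

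Counts of genes called changed as follows; the cause was not tested, apart from the fewer arrays of the settings that leave arrays out. Without the 4 male arrays and against the number with all arrays, the genes called were 2611 against 5245 for the transgene in DN2-3, 977 against 3138 in B6g7 DN2-3, 855 against 3808 in NOD DN2-3, 613 against 2709 in NOD DN4, 2387 against 5460 for stage in BDC, 2468 against 4451 for strain on average, 380 against 1130 for strain in non-Tg DN2-3, 133 against 982 in BDC DN2-3, 417 against 2004 in non-Tg DN4, 1731 against 4387 in BDC DN4, 4 against 123 for transgene by strain in DN2-3 and 321 against 2152 in DN4. Of the 9 genes, the called number was then 1 against 3 for the transgene in B6g7 DN2-3, 2 against 4 in NOD DN2-3, 1 against 6 in NOD DN4, 0 against 1 for strain in non-Tg DN2-3, 0 against 3 in BDC DN2-3, 1 against 3 in non-Tg DN4, 2 against 5 for transgene by stage and 0 against 3 for transgene by strain in DN4.

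With array weights the genes called were 1228 for the transgene in NOD DN2-3 and 4491 in NOD DN4, 226 for strain in non-Tg DN2-3, 1710 in BDC DN2-3 and 3012 in non-Tg DN4, and 36 and 3436 for transgene by strain in DN2-3 and DN4; of the 9 genes 6 were called in B6g7 DN2-3 for the transgene, and 0 in non-Tg DN2-3 and 6 in BDC DN4 for strain. With only the arrays compared the genes were 297 and 4098 for the transgene in NOD DN2-3 and NOD DN4, 81 and 1505 for strain in non-Tg and BDC DN2-3, and 30 and 3305 for transgene by strain; of the 9 genes, 6 and 0 were called for the transgene in B6g7 and NOD DN2-3, 5 for stage in BDC, and 0, 5 and 6 for strain in non-Tg DN2-3, BDC DN2-3 and BDC DN4. Strain in non-Tg DN2-3 called 0 of the 9 genes with no filter, 0 with sex as a term and 3 with quantile normalization again, which also called 1 for transgene by strain in DN2-3.

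Leaving out 1 array in turn, the number called ranged from 2 to 5 of the 9 genes and from 1625 to 4600 of all genes for the transgene in B6g7 DN2-3, 3 to 7 and 2017 to 5784 in NOD DN2-3, and 3 to 6 and 1353 to 3957 in NOD DN4. For strain they ranged from 4 to 7 of the 9 genes on average, 0 to 3 and 388 to 4742 of all genes in non-Tg DN2-3, 1 to 4 and 447 to 1679 in BDC DN2-3, 1 to 5 and 435 to 4379 in non-Tg DN4, and 2 to 5 of the 9 genes in BDC DN4. For transgene by strain they ranged from 0 to 3 and 56 to 2744 in DN2-3 and 0 to 5 and 1305 to 3734 in DN4. The upper ends of the gene counts came from leaving out an array of NOD DN2-3. With either NOD DN2-3 array left out and with unchanged values, Dusp4 (0.39, adjusted p = 0.0081) and Dusp6 (0.53, adjusted p = 0.000155) then passed for the transgene in B6g7 DN2-3, Dusp6 for stage in BDC (0.25, adjusted p = 0.00155) and for strain in non-Tg DN4 (0.34, adjusted p = 0.00484), and Dusp5 (-0.53, adjusted p = 0.0148) and Dusp10 (-0.33, adjusted p = 0.0102) for strain in BDC DN4.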
